A study of Mus musculus with 17 samples.

Results

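The glutamate receptor genes and the genes of their synaptic partners were followed across 4 groups of mouse cortex libraries, defined by age and by deletion of Tsc1. The set comprised 42 genes, chosen by gene symbol among the 23284 rows of the count table. They were the 26 genes of the AMPA (Gria1 to Gria4), kainate (Grik1 to Grik5), NMDA (Grin1, Grin2a to Grin2d, Grin3a and Grin3b), delta (Grid) and metabotropic (Grm) receptors, and 16 genes of the Dlg, Grip, Homer and Shank scaffolds and of the auxiliary subunits Cnih2, Cnih3, Neto1 and Neto2. The tissue was superficial somatosensory and parietal cortex, taken from mice of a Bl6/129S mixed background, as 5 mGfapCre+:Tsc1CKO and 5 control libraries at 4 weeks of age and 4 mGfapCre+:Tsc1CKO and 3 control libraries at 15 weeks. Tsc1CKO stands for a conditional knockout of Tsc1, which encodes hamartin, a part of the complex that restrains the kinase mTOR. The controls were littermates that carried the mGFAPCre transgene too, so Cre driven by the mouse Gfap promoter was common to all 4 groups. No label states the Tsc1 alleles of the controls, the cells in which Cre acted or whether each library is 1 animal, so p-values here cover only the spread from library to library, which may be technical.

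Most fast excitatory transmission in the cortex passes through AMPA and NMDA receptors, ion channels assembled from several subunits whose mixture sets their kinetics and calcium entry. Kainate and delta receptors are related proteins, and metabotropic receptors act through G proteins, either after the synapse (such as Grm5) or mostly on axon terminals and glia (Grm2, Grm3, Grm4, Grm7 and Grm8). Dlg, Homer and Shank proteins form the layers of the postsynaptic density that hold these receptors in place, and cornichon (Cnih) and Neto proteins ride along with the channels and change their gating or trafficking.

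The 4-week libraries held 13492007 to 24583430 counts and the 15-week libraries 16680450 to 20508464, of which the 42 genes took 0.462 to 0.854%. Tsc1 itself was counted at 84.6 to 99.5 CPM (CPM being counts scaled to a common library total) in 4-week controls, 80.3 to 99.3 CPM in 4-week Tsc1CKO, 114 to 133 CPM in 15-week controls and 82.2 to 131 CPM in 15-week Tsc1CKO. These counts cover the whole gene and do not check the genotype labels. Neurod6, a marker of cortical excitatory neurons, was present in every library, with a lowest level of 30.7 CPM. Library 4 of the 15-week Tsc1CKO group stood apart from its group in the astrocyte filament gene Gfap. Its Gfap was at 996 CPM against 2943.3 to 5053.8 CPM in the other 3 and 104 to 134 CPM in controls. Over all counts, library 2 stood about as far from the rest of the group. Chi-square values per degree of freedom were 48.9 to 96.8 for pairs with library 2 and 49.9 to 96.8 for pairs with library 4. Values without library 4 are given beside those 15-week genotype differences of the set whose call it changed, and beside some of the others. Cerebellar granule cell genes, chosen after their values were seen, were raised in 2 libraries. Gabra6 was at 5.45 CPM in 4-week Tsc1CKO library 1 and 2.1 CPM in 15-week control library 2, against at most 0.5 CPM elsewhere. Gh, a marker of the pituitary, was at 136, 346 and 273 CPM in 4-week Tsc1CKO libraries 1, 2 and 5. It was at 34.2, 44.3 and 93.3 CPM in 4-week controls 1 to 3 and at most 13.8 CPM in the other 4-week libraries. At 15 weeks Gh was at 52.4 CPM in Tsc1CKO library 2 and at most 2.67 CPM in the others. The part of such tissue in the values of the set was not tested.

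Per kilobase of annotated exon, the scale on which genes can be compared, Dlg4 was the highest of the 42 genes in 15-week controls at 164 ± 8.01 CPM per kb (SD, n = 3). Dlg4 encodes PSD-95, the main scaffold of the postsynaptic density. Next came Gria2, the subunit that makes AMPA receptors impermeable to calcium, at 116 ± 3.5 CPM per kb, Cnih2 at 93.8 ± 4.76 CPM per kb and Shank1 at 82.6 ± 14.7 CPM per kb. The means of Cnih2 and Shank1 lay within the spread of Shank1. Grik5, Dlg2 and Gria1 followed at 58.4 ± 7.1, 56.3 ± 3.16 and 55.4 ± 7.21 CPM per kb, which do not differ beyond their spread. Among the low genes were Homer3 (1.18 ± 0.0397 CPM per kb) and Grin3b (0.257 ± 0.041 CPM per kb). Dlg4, Gria2, Cnih2 and Shank1 held ranks 1 to 4 in 4-week controls as well. Grm6, a receptor of retinal bipolar cells, had at most 2 counts in a library. It was the 1 gene of the 42 that the filter on low counts removed, which leaves 41.

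At 15 weeks, where the question was how the genes differ after longer loss of Tsc1, receptor messages were mostly lower in Tsc1CKO cortex and few of the differences passed the test. Of the 41 genes, 36 had a negative log2 fold change (Tsc1CKO over control), against 47.7% of all 15015 genes tested, and the median was -0.35 against 0.02 for all genes. With edgeR's quasi-likelihood test and Benjamini-Hochberg adjustment over all genes, 2 of the 41 passed an adjusted p of 0.05, where 3.78% of all genes tested did. Homer3 rose, as did 3.36% of all genes, and Grin2d fell, as did 0.42%. With no adjustment, 16 genes were lower at p under 0.05, where the share of all genes was 9.59%, and 2 were higher, where it was 15.7%. In 17 of the 41 genes every Tsc1CKO library lay below every control, against 13.3% of all genes. Every Tsc1CKO library lay above every control in 2 of the 41, Homer3 and Cnih2, against 11.2% of all genes. The 17 lower genes were 12 of the 25 receptor genes and 5 of the 16 partners, with medians of -0.50 and -0.26 over all tested genes of each kind.

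**Figure D1:**
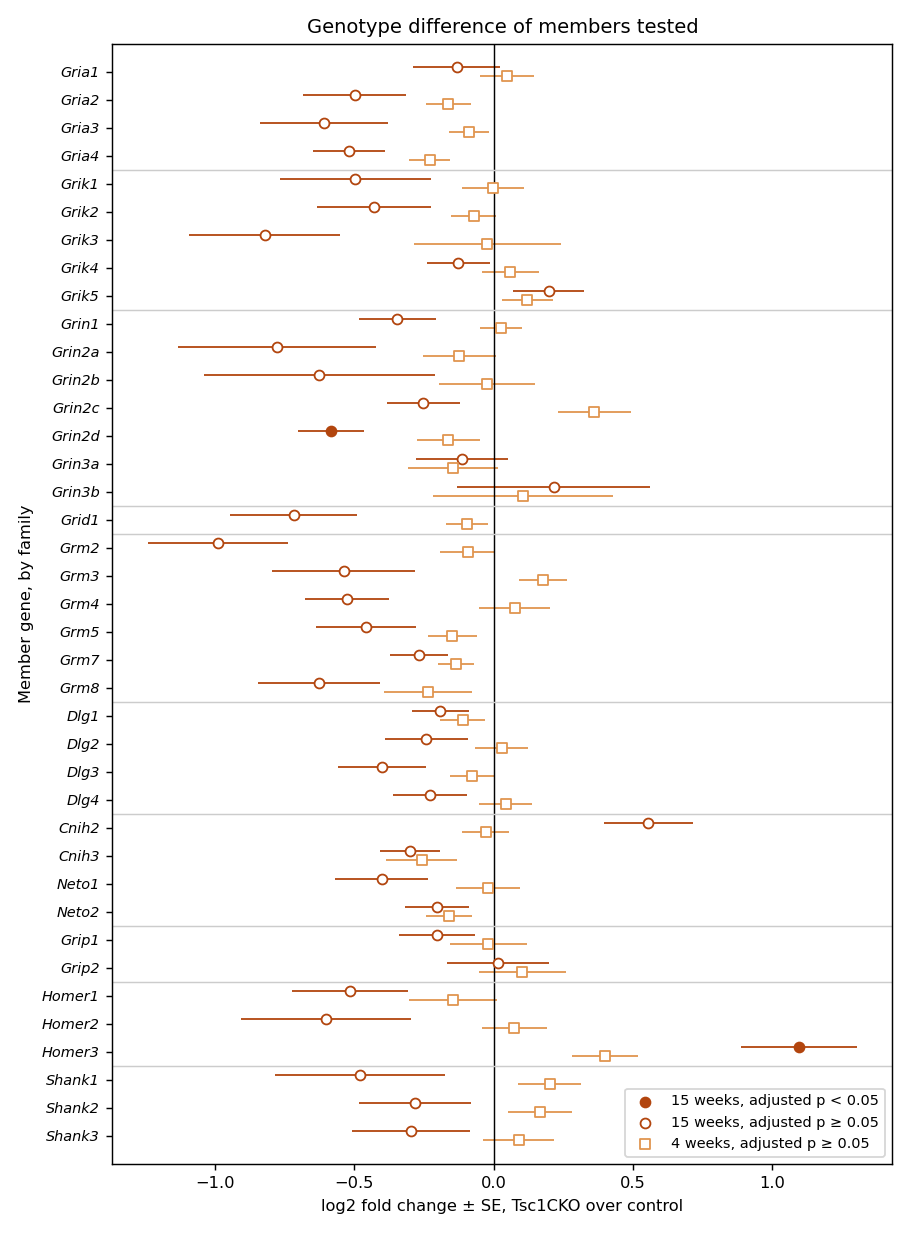
Log2 fold change of Tsc1CKO over control for 39 of the genes tested, grouped by family, at 15 weeks (circles) and 4 weeks (squares), with bars of 1 SE. Filled symbols pass an adjusted p of 0.05, which only Homer3 (1.10) and Grin2d (-0.58) do, both at 15 weeks, while 34 of the 39 circles lie left of 0.

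These counts moved with single libraries. Without Tsc1CKO library 4, edgeR called 20 of the 41 genes, 2 higher and 18 lower, where 13.4% of all genes were called higher and 9.8% lower, 23.2% in all. The 18 comprised 12 receptor genes (Grm2, Grm3, Grm4, Grm8, Grin2d, Grid1, Gria2, Gria3, Gria4, Grik1, Grik2 and Grik3) and 6 partners (Homer1, Homer2, Shank1, Shank3, Dlg2 and Dlg4). The median over the 41 genes was then -0.45. Library 4 was marked out by Gfap, which itself differs between the genotypes, and was often the Tsc1CKO library nearest the controls. Leaving it out therefore tends to widen the differences, so the adjusted p-values without it show how the calls depend on it and are no added support. The other 21 genes were called neither with nor without library 4, with adjusted p from 0.0531 to 0.985 without it. Without Tsc1CKO library 1 or 3, or without any 1 of the 3 controls, none was called, and the share of all genes was 0.779% and 1.98% without those 2 Tsc1CKO libraries and 0.275, 0.256 and 0.315% without control 1, 2 or 3. DESeq2 called 9 of the 41, 2 higher and 7 lower, where it called 8.42% of all genes higher and 4.41% lower, 12.8% in all. The 7 were Grin2d, Gria4, Grm2, Grm4, Grid1, Grik3 and Cnih3. A fit over all 17 libraries called 17 of the 41, where 22.6% of all genes were called, and limma voom with quality weights called 29, where 34.5% were.

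Homer3 encodes a Homer protein, a family whose members link metabotropic receptors to Shank and to calcium release channels, and it is best known from cerebellar Purkinje cells. The gene lies on chromosome 8 (72806726 to 72818260, plus strand, mm9, protein coding). It was counted at 4.15, 4.15 and 3.92 CPM in 15-week controls 1 to 3 and at 8.9, 10.1, 9.53 and 5.87 CPM in Tsc1CKO libraries 1 to 4. All 4 Tsc1CKO libraries lay above the controls, and library 4 was the nearest to them. The log2 fold change was 1.10 ± 0.21 (SE, adjusted p = 0.0329), a 2.14-fold rise. It stayed between 1.01 and 1.23 as each library was left out. The adjusted p was above 0.05 without Tsc1CKO library 1 (0.0998) or 3 (0.0667) and without control 1, 2 or 3 (0.156, 0.152 and 0.144).

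Grin2d encodes an NMDA subunit with slow kinetics that in the adult forebrain is known from inhibitory neurons (chromosome 7, 53087253 to 53126298, minus strand, mm9). The 15-week controls were at 20, 19.6 and 19.4 CPM and the Tsc1CKO libraries at 12.6, 12.5, 12.1 and 14.5 CPM. The groups did not overlap, and each was narrow. The log2 fold change was -0.58 ± 0.12 (SE, adjusted p = 0.0377) and ranged from -0.65 to -0.55 over the fits that leave out 1 library. The same 5 libraries as for Homer3 ended the call when left out, with adjusted p of 0.122 and 0.0741 without Tsc1CKO library 1 or 3 and 0.179, 0.163 and 0.149 without control 1, 2 or 3. Without Tsc1CKO library 4 the value was -0.65 (adjusted p = 0.00577). Of the 10 markers of inhibitory neurons, 1 fell at 15 weeks, Vip, where 0.42% of all genes fell. Of these markers, 4 were above 0 and 6 below, and the median was -0.18. Their summed level was 1753.9, 1445.8, 1245.4 and 972 CPM in Tsc1CKO libraries 1 to 4 against 1191.5 to 1220.5 CPM in controls, so 3 of 4 were above the controls. The part of these levels in Grin2d was not tested.

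Homer3 and Grin2d are shown with Grm2 and Cnih2, the lowest and the second highest log2 fold change of the 41 at 15 weeks, by the 250 bases before their annotated start, taken from RefSeq promoter windows of GRCm38.p6 and written 5′ to 3′ on the strand of the gene. Capitals mark the GC box, GGGCGG on either strand.
Homer3: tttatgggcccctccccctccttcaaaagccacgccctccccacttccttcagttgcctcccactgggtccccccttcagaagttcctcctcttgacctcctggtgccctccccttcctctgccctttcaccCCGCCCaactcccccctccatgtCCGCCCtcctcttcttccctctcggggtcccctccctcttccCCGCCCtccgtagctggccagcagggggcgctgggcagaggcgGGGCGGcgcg
Grin2d: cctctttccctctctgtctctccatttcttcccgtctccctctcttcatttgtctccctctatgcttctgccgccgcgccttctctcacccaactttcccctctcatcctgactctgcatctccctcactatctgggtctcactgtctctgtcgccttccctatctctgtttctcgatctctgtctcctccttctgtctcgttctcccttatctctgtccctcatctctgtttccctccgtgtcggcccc
Grm2: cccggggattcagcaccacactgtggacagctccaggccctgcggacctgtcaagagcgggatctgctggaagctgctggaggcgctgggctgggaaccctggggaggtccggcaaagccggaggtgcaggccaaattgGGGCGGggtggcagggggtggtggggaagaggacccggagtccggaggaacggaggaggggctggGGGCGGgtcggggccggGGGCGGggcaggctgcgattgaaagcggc
Cnih2: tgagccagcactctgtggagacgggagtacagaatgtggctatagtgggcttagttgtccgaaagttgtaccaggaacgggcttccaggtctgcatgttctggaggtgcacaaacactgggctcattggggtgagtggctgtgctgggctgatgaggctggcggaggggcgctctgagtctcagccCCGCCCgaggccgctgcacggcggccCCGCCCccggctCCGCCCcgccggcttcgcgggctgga
The windows are chr8:70282749-70282998 (plus strand) for Homer3, chr7:45866682-45866931 (minus strand) for Grin2d, chr9:106656110-106656359 (minus strand) for Grm2 and chr19:5098522-5098771 (minus strand) for Cnih2. Homer3 had 4 GC boxes, Grm2 and Cnih2 had 3 each and Grin2d had none, and the share of G and C was 68, 71.2, 65.6 and 54.4% in that order. A GC box was found in 32.7% of 32851 windows of this length and in 20 of the 44 windows of the 28 genes of the set that the table holds. The letters TGACGTCA, CACGTG and TGANTCA, also searched on both strands, were in none of the 4 windows shown. They occurred in 1.55, 6.02 and 6.75% of all windows and in 0, 4 and 2 of the 44, and overlaps between motifs were not removed.

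The AMPA receptor subunits were lower in 4 of 4 genes at 15 weeks, with a median log2 fold change of -0.51, and none passed the test. Gria4, known from fast-spiking interneurons, came nearest (chromosome 9, 4417899 to 4796234, minus strand, mm9). Its controls were at 172, 165 and 165 CPM and its Tsc1CKO libraries at 113, 97.4, 116 and 133 CPM, with no overlap. The log2 fold change was -0.52 ± 0.13 (SE, adjusted p = 0.0583), and the adjusted p was 0.0023 with DESeq2 and 0.00725 without Tsc1CKO library 4. Gria2 was at 782, 831 and 806 CPM in controls and at 495, 416, 650 and 683 CPM in Tsc1CKO (-0.50 ± 0.18, adjusted p = 0.137). Again no library overlapped, and libraries 3 and 4 were closest to the controls. Without library 4 the adjusted p of Gria2 was 0.0305. Gria1, the subunit whose insertion is best known from synaptic plasticity, was at 333, 379 and 292 CPM in controls and at 306, 238, 336 and 322 CPM in Tsc1CKO. Its groups overlapped, and the log2 fold change of -0.13 ± 0.16 (SE, adjusted p = 0.611) had an interval of 2 SE from -0.45 to 0.18. Gria3 stood at -0.61 ± 0.23 (adjusted p = 0.142) and, without library 4, at -0.78 ± 0.20 (adjusted p = 0.0285).

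**Figure D2:**
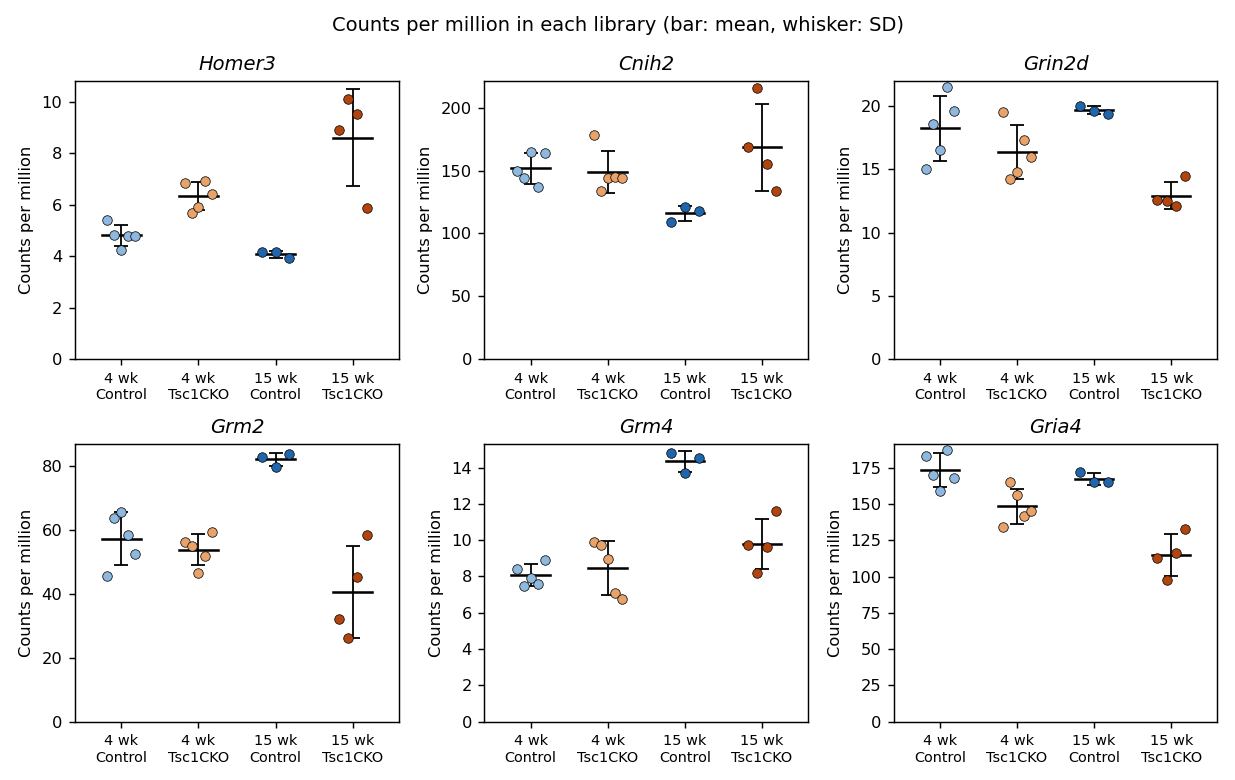
CPM of Homer3, Cnih2, Grin2d, Grm2, Grm4 and Gria4 in each of the 17 libraries by group, with the mean (bar) and SD (whisker). At 15 weeks the Tsc1CKO libraries of Homer3 (5.87 to 10.1 CPM) and Cnih2 lie above the controls, and those of Grin2d (12.1 to 14.5 CPM), Grm2, Grm4 and Gria4 below them.

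Of the NMDA receptor genes, 6 of 7 had negative log2 fold changes at 15 weeks, with a median of -0.35, and Grin2d was the 1 that passed. Grin1, the subunit every NMDA receptor needs, was at 324, 320 and 372 CPM in controls and at 266, 217, 300 and 266 CPM in Tsc1CKO, without overlap (-0.35 ± 0.14, adjusted p = 0.161). Grin2a and Grin2b encode the 2 main glutamate-binding subunits of the forebrain. Grin2a was at 58.3, 84.3 and 75.6 CPM in controls and at 33.1, 18.6, 59.1 and 55.9 CPM in Tsc1CKO. Grin2b was at 149, 263 and 215 CPM in controls and at 91.6, 55.7, 193 and 193 CPM in Tsc1CKO. In both genes libraries 1 and 2 were the lowest. Library 3 for Grin2a and libraries 3 and 4 for Grin2b reached into the control range, so the groups overlapped. The log2 fold changes were -0.78 ± 0.36 (adjusted p = 0.211) for Grin2a and -0.62 ± 0.42 (adjusted p = 0.364) for Grin2b, and without library 4 -0.96 (adjusted p = 0.0903) and -0.87 (adjusted p = 0.162). The 3 remaining genes, Grin2c (-0.25), Grin3a (-0.11) and Grin3b (0.21), had adjusted p from 0.263 to 0.715.

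Metabotropic receptors were negative in 7 of 7 genes tested at 15 weeks, with a median of -0.53, and none passed. Grm2, an inhibitory receptor of axon terminals, had the most negative log2 fold change of the set (chromosome 9, 106546868 to 106558440, minus strand, mm9). Controls were at 82.7, 79.8 and 83.7 CPM and Tsc1CKO libraries at 32.3, 26.1, 45.4 and 58.5 CPM. The groups were well apart, and library 4 was again nearest to the controls. The log2 fold change was -0.99 ± 0.25 (SE, adjusted p = 0.0612), and the adjusted p was 0.00284 with DESeq2 and 0.0038 without library 4. Grm4, a presynaptic receptor of the same inhibitory kind, was at 14.8, 13.7 and 14.5 CPM in controls and at 9.71, 8.19, 9.64 and 11.6 CPM in Tsc1CKO (-0.53 ± 0.15, adjusted p = 0.0784). Its groups did not overlap either, and the adjusted p was 0.02 with DESeq2 and 0.0146 without library 4.

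Grm5, the main excitatory metabotropic receptor of cortical neurons, was at 278, 313 and 277 CPM in controls and at 197, 150, 244 and 238 CPM in Tsc1CKO. The groups were separate, at -0.46 ± 0.18 (adjusted p = 0.155), and at -0.54 (adjusted p = 0.0585) without library 4. Grm3, which is known from astrocytes as well as neurons, was at 133, 146 and 142 CPM in controls and at 77.3, 76.7, 75.5 and 151 CPM in Tsc1CKO. Libraries 1 to 3 lay within 2 CPM of each other and library 4 above every control. The log2 fold change was -0.54 ± 0.26 (adjusted p = 0.223) with library 4 and -0.87 ± 0.10 (adjusted p = 0.000994) without it. The summed level of the astrocyte markers at 15 weeks was 12610.6 to 15068.9 CPM in Tsc1CKO, lowest in library 4, and 7450.9 to 8351.1 CPM in controls. The part of these levels in Grm3 was not tested. Grm8 (-0.63, adjusted p = 0.123) and Grm7 (-0.27, adjusted p = 0.156) were lower without overlap, and Grm8 passed without library 4 (-0.79, adjusted p = 0.0221).

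Among the kainate and delta receptors none passed at 15 weeks. Grik3, which forms kainate receptors of low affinity, was at 126, 131 and 103 CPM in controls and at 66.1, 39.1, 62.7 and 99.2 CPM in Tsc1CKO (-0.82 ± 0.27, adjusted p = 0.108). Grid1, which binds cerebellin at synapses, was at 57.5, 65.4 and 65.4 CPM in controls and at 33.9, 25, 38.1 and 53.2 CPM in Tsc1CKO (-0.72 ± 0.23, adjusted p = 0.0997). Neither gene overlapped between groups, and DESeq2 gave adjusted p of 0.0263 and 0.026. Without library 4, Grik3 stood at -1.09 ± 0.20 (adjusted p = 0.00809) and Grid1 at -0.94 (adjusted p = 0.00604). The other 3 kainate genes with negative values, Grik1, Grik2 and Grik4, lay between -0.50 and -0.13, and Grik5 at 0.20. Of these, Grik1 (-0.75, adjusted p = 0.0392) and Grik2 (-0.61, adjusted p = 0.0309) passed without library 4.

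The scaffolds were lower in 4 of 4 Dlg genes (median -0.24) and 3 of 3 Shank genes (median -0.30), none of which passed at 15 weeks. Dlg4 was at 733, 750 and 805 CPM in controls and at 588, 632, 584 and 757 CPM in Tsc1CKO (-0.23 ± 0.13, adjusted p = 0.304). Libraries 1 to 3 were below all controls and library 4 was among them, and without it the value was -0.33 ± 0.10 (adjusted p = 0.0448). Homer1, whose short form is induced by activity, was at 228, 216 and 342 CPM in controls and at 172, 156, 160 and 234 CPM in Tsc1CKO (-0.52 ± 0.21, adjusted p = 0.167). Control 3 was high and library 4 lay inside the control range, and without library 4 the value was -0.68 (adjusted p = 0.0285). The gene count does not tell the short form of Homer1 from the long ones. In Homer2 and Shank1 library 4 also lay inside the control range and libraries 1 to 3 below it. Homer2 was at 54.6, 49 and 50.9 CPM in libraries 1 to 3, 112 CPM in library 4 and 89 to 127 CPM in controls. Its log2 fold change was -0.60 ± 0.30 (adjusted p = 0.248) with library 4 and -0.99 ± 0.15 (adjusted p = 0.0038) without it. Shank1 was at 365, 308 and 481 CPM in libraries 1 to 3, 773 CPM in library 4 and 546 to 774 CPM in controls, at -0.48 (adjusted p = 0.343) with library 4 and -0.82 ± 0.20 (adjusted p = 0.0211) without it. Shank3 moved from -0.30 to -0.51 (adjusted p = 0.0334) and Dlg2 from -0.24 to -0.36 (adjusted p = 0.0455) when library 4 was left out.

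Of the 4 auxiliary subunits, Cnih2 was higher and the other 3 were lower at 15 weeks. Cnih2 encodes a cornichon that slows the closing of AMPA receptors (chromosome 19, 5092871 to 5098418, minus strand, mm9). Its controls were at 109, 121 and 118 CPM and its Tsc1CKO libraries at 169, 216, 155 and 134 CPM. Every Tsc1CKO library was above the controls, with library 4 the closest. A log2 fold change of 0.56 ± 0.16 (SE) did not pass (adjusted p = 0.0788), and the adjusted p was 0.0261 with DESeq2 and 0.0146 without library 4. Cnih3 stood at -0.30 (adjusted p = 0.128), and the kainate receptor partners Neto1 and Neto2 at -0.40 and -0.20, all 3 with groups that do not overlap. The scaffold genes Grip1 (-0.20) and Grip2 (0.01) had overlapping groups.

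Markers of several cell types differed between the same libraries, in a comparison where 3.36% of all genes rose and 0.42% fell. Of 12 astrocyte markers, 9 rose at 15 weeks (median 1.01), and their summed level was 12610.6 to 15068.9 CPM in Tsc1CKO against 7450.9 to 8351.1 CPM in controls. Of 10 microglia markers, 3 rose (median 0.89), with summed levels of 616 to 1191.2 CPM against 400 to 460 CPM. None of 9 excitatory neuron markers passed, their median was -0.60, and their summed level was 6024 to 7820.3 CPM against 7885.9 to 10029.6 CPM, the highest Tsc1CKO value being that of library 4. The 8 pan-neuronal markers tested had a median of 0.09 and summed levels of 6947.4 to 8425.6 CPM against 8387.3 to 9494.5 CPM. Among 7 striatal markers, 2 rose (Adora2a and Rgs9), with summed levels of 181 to 277 CPM against 168 to 177 CPM. Without library 4, 13.4% of all genes rose and 9.8% fell. The astrocyte calls were then 9, the microglia calls 8 and the striatal calls 4 higher and 1 lower. Of the excitatory neuron markers 1 rose and 3 fell in that fit (median -0.78), and of the pan-neuronal ones 2 rose and 2 fell. No marker of these lists was at 0 in every library. The ribosomal RNA gene Rn45s took 5.73, 10.7, 5.28 and 7.27% of counts in Tsc1CKO libraries 1 to 4 and 4.58 to 5.45% in controls. Library 2, with the most Rn45s, was the lowest Tsc1CKO library in 28 of the 41 genes, and without it 34 of the 41 were negative, with a median of -0.28 and 2 calls, where 3.36% of all genes were called. The part of the marker and Rn45s levels in the receptor values was not tested, and in bulk tissue fewer cells of a type and less RNA per cell cannot be told apart.

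Other genes of glutamatergic synapses, from lists that share no gene with the 42, also gave few calls at 15 weeks. Like the 42, these lists were chosen with earlier results of these data known. Of all genes tested, 0.42% fell and 3.36% rose. None of 13 tested AMPA receptor auxiliary proteins such as the TARPs passed, and their median was -0.20. None of 27 postsynaptic scaffold and signalling genes passed, with 26 of the 27 negative and a median of -0.24, and none of 22 adhesion and organizer genes, with 21 negative and a median of -0.39. Of 14 genes of glutamate transport and metabolism, 1 rose, the astrocyte transporter Slc1a3 (0.66 ± 0.12, adjusted p = 0.0309), and the median was 0.01. Slc1a3 and Slc1a2 of this list are also among the 12 astrocyte markers. The transport list and the scaffold and signalling list also each share a gene with the excitatory neuron markers. Without library 4, 5 of the 13, 10 of the 27 and 9 of the 22 fell, with 1 rise in each list, and 4 of the 14 rose. In that fit 9.8% of all genes fell and 13.4% rose.

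At 4 weeks, none of the 41 genes passed edgeR's test, where 0.0407% of 14754 genes did. The median log2 fold change was -0.02 against 0.00 for all genes, with 23 of the 41 below 0, against 49% of all genes. With no adjustment, Homer3 and Grin2c were higher and Gria4 was lower at p under 0.05, where the shares of all genes were 9.81 and 8.95%. DESeq2 called 1 gene, Gria4, where its share of all genes was 4.49%.

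The smallest p at 4 weeks was that of Homer3. It was at 5.39, 4.84, 4.26, 4.8 and 4.78 CPM in controls 1 to 5 and at 6.83, 5.68, 5.92, 6.92 and 6.42 CPM in Tsc1CKO libraries 1 to 5. Of the 41 genes, 1 had Tsc1CKO libraries wholly above the controls at 4 weeks, Homer3, and none had them wholly below, where the shares of all genes were 1.84 and 1.48%. Its log2 fold change was 0.40 ± 0.12 (SE, adjusted p = 0.117). Gria4 was at 183, 170, 159, 187 and 168 CPM in controls and at 134, 165, 156, 142 and 145 CPM in Tsc1CKO, where library 2 was the 1 that reached the control range. Its log2 fold change of -0.23 ± 0.07 (SE) had an adjusted p of 0.127 with edgeR and 0.0482 with DESeq2. The authors' deposited table for 4 weeks lists Gria4 at -0.23 with an adjusted p of 0.0484, the 1 gene of the set among 594 listed.

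Grin2c, an NMDA subunit known from cerebellar granule cells and from astrocytes, was at 65.4, 77.9, 84.1, 50.9 and 72.7 CPM in 4-week controls and at 109, 78.1, 77.3, 92.9 and 94.8 CPM in Tsc1CKO (0.36 ± 0.13, adjusted p = 0.168). The highest value belongs to Tsc1CKO library 1, which also had the most Gabra6, and the lowest to control 4. The summed level of the astrocyte markers was 7089.6 CPM in control 4, 11080.6 to 11699.8 CPM in the other controls and 10949.8 to 15676.3 CPM in Tsc1CKO. At 4 weeks 0 of 12 of these markers passed, where 0.0407% of all genes did, and their median was 0.39. The part of these levels in Grin2c was not tested. Grm7, a presynaptic receptor, was at 77.3, 75.5, 74.9, 82.2 and 71.3 CPM in controls and at 70.4, 70.3, 62.6, 72.4 and 72.3 CPM in Tsc1CKO, with 2 Tsc1CKO libraries inside the control range (-0.13 ± 0.06, adjusted p = 0.276).

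None of the principal subunits passed at 4 weeks. Gria2 was at 1014.8, 871, 843, 882 and 786 CPM in controls and at 740, 882, 792, 758 and 763 CPM in Tsc1CKO (-0.16 ± 0.08, adjusted p = 0.295). Grm3 was at 130, 131, 125, 108 and 128 CPM in controls and at 144, 128, 126, 137 and 171 CPM in Tsc1CKO (0.18 ± 0.09, adjusted p = 0.29). Both pairs of groups overlapped. Homer1 was at 371, 226, 196, 220 and 325 CPM in controls and at 223, 283, 250, 233 and 222 CPM in Tsc1CKO, with controls 1 and 5 above every other 4-week library (-0.15 ± 0.16, adjusted p = 0.666). Intervals of 2 SE ran from -0.15 to 0.24 for Gria1, from -0.12 to 0.18 for Grin1, from -0.38 to 0.14 for Grin2a and from -0.37 to 0.32 for Grin2b. They ran from -0.39 to 0.06 for Grin2d, from -0.33 to 0.03 for Grm5 and from -0.15 to 0.23 for Dlg4.

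Tsc1CKO libraries of Grm5 at 4 weeks were at 181, 230, 233, 177 and 201 CPM against 250, 208, 228, 229 and 213 CPM in controls. Those of Grin2d were at 19.5, 14.2, 14.8, 17.3 and 16 CPM against 15, 18.6, 16.5, 21.5 and 19.6 CPM. In neither gene did the groups separate. For Gria1 the Tsc1CKO libraries were at 233, 265, 266, 201 and 192 CPM against 204 to 239 CPM in controls, and for Grin1 at 267, 235, 230, 238 and 210 CPM against 213 to 255 CPM. Grin2a was at 34.2, 37, 34, 27.6 and 24.2 CPM in Tsc1CKO and at 26.3 to 41.4 CPM in controls, and Grin2b at 113, 99.8, 105, 67.8 and 75.6 CPM and at 66.5 to 115 CPM. Dlg4 was at 1075.1, 929, 904, 1145.6 and 1132 CPM in Tsc1CKO and at 823 to 1082.1 CPM in controls. The groups of these 5 genes overlapped. Of the Tsc1CKO libraries, 4 and 5 were the lowest for Gria1, Grin2a and Grin2b and the highest for Dlg4. None of the 4 lists of other synaptic genes had a member that passed at 4 weeks, where 0.0407% of all genes did. Their medians lay between -0.08 and 0.02.

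Whether the genotype difference itself changed between the ages was tested over all 17 libraries. None of the 41 genes passed edgeR's test, where 0.213% of 15492 genes did. With no adjustment, the 15-week difference was higher in 2 genes and lower in 13 at p under 0.05, where the shares of all genes were 12.7 and 12.4%. At 36 of 41 genes the 15-week difference was the more negative one, against 50.6% of all genes. The median was -0.36, against -0.01 for all genes. The 5 smallest p belonged to Grm2 (-0.93 ± 0.25, adjusted p = 0.0743), Grm4 (-0.63 ± 0.19, adjusted p = 0.0835), Cnih2 (0.56 ± 0.17, adjusted p = 0.0844), Grin2c (-0.64 ± 0.20, adjusted p = 0.0862) and Homer3 (0.68 ± 0.21, adjusted p = 0.0913). At 4 weeks Grm2 was at 45.6, 63.9, 65.7, 58.4 and 52.5 CPM in controls and at 56.2, 54.9, 46.5, 51.9 and 59.3 CPM in Tsc1CKO, so its groups overlapped there and were separate at 15 weeks. Grm4 was at 8.43, 7.48, 7.89, 7.57 and 8.91 CPM and at 9.9, 9.74, 8.94, 7.07 and 6.76 CPM, and Cnih2 at 150, 144, 165, 137 and 164 CPM and at 178, 134, 144, 145 and 144 CPM. Neither gene separated the groups at 4 weeks. Grin2c at 15 weeks was at 43.5, 54.6 and 56.2 CPM in controls and at 45.5, 41.8, 37.3 and 45.5 CPM in Tsc1CKO, with control 1 among the Tsc1CKO libraries.

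DESeq2 called 4 genes for this difference, Cnih2 higher and Grm2, Grm4 and Grin2c lower, where it called 3.75% of all genes higher and 2.64% lower, 6.4% in all, and limma voom called 20, where its share was 25.5%. The same 4 genes are those of the set in the authors' deposited table for 15 weeks, at 0.56, -0.92, -0.63 and -0.64, among 1062 genes listed. The fold changes of that table lie within 0.01 of DESeq2's difference between the ages for 1061 of its 1062 genes and within 0.01 of the 15-week genotype difference for 39. It is therefore read here as a test of the change in the genotype difference with age, not of genotype at 15 weeks. The 4-week table lies within 0.01 of the 4-week genotype difference for all 594 genes. Without 15-week Tsc1CKO library 4, edgeR called 18 of the 41, 2 higher (Homer3 and Cnih2) and 16 lower, where 11.2% of all genes were called higher and 11.4% lower, 22.6% in all.

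Age itself was compared in controls, as the background against which subunits change after weaning. Most receptor genes were higher at 15 than at 4 weeks, and of the partners more fell than rose. Of the 41 genes, 18 rose and 7 fell, where 22.4% of 15007 genes rose and 19.3% fell. The receptors comprised 15 rises and 1 fall among 25 genes (median 0.36), and the partners 3 rises and 6 falls among 16 (median -0.19), against a median of -0.00 for all genes. In 19 of the 41 genes every 15-week control was above every 4-week control, against 21.9% of all genes, and in 5 below, against 19.1%. Age cannot be told apart from any separate preparation of the 2 ages, since the sample codes of the ages form separate series and the labels name no batch. These controls are also those of the genotype comparisons, so the age values and the genotype values are not independent.

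**Figure D3:**
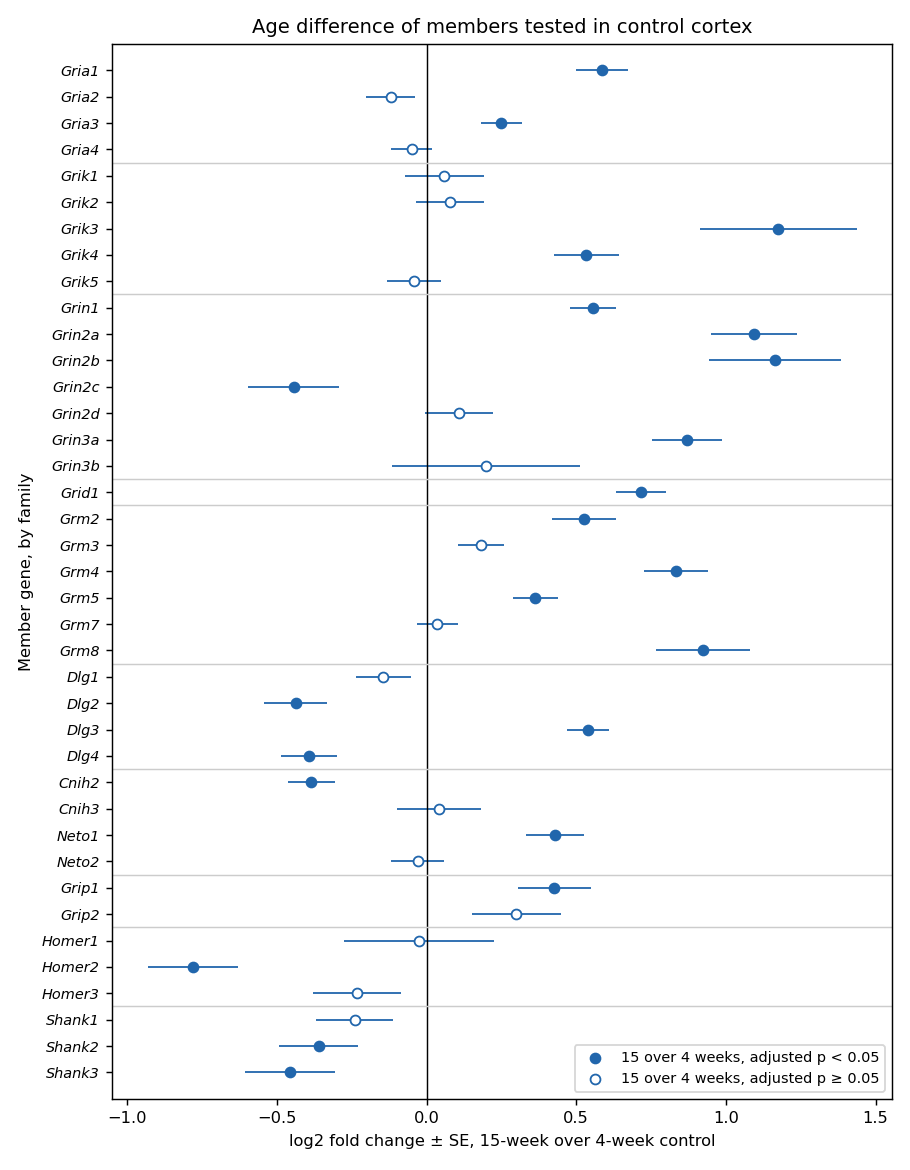
Log2 fold change of 15-week over 4-week controls for 39 of the genes tested, by family, with bars of 1 SE. Filled symbols pass an adjusted p of 0.05: 13 receptor genes lie right of 0 and Grin2c left of it, while 6 of the 9 partners that pass (Dlg2, Dlg4, Cnih2, Homer2, Shank2 and Shank3) lie left of 0.

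Grid1 was at 36.6, 37.7, 42.4, 40.2 and 34.8 CPM in 4-week controls and at 57.5, 65.4 and 65.4 CPM in 15-week controls (0.72 ± 0.08, adjusted p = 6.02e-05). The ages were well apart, and the same held for the following receptors. Grm4, at 7.48 to 8.91 CPM at 4 weeks and 13.7 to 14.8 CPM at 15 weeks, rose by 0.83 ± 0.11 (adjusted p = 0.000112). Grin3a, a subunit that lowers calcium entry through NMDA receptors, was at 11.5, 10.4, 13.9, 14.5 and 14 CPM and then at 24.1, 24.9 and 21.5 CPM (0.87 ± 0.12, adjusted p = 0.000157).

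The principal NMDA subunits rose together. Grin1 was at 213, 223, 237, 255 and 228 CPM in 4-week controls and at 320 to 372 CPM in 15-week controls (0.56 ± 0.08, adjusted p = 0.000181). Grin2a was at 33.5, 32.1, 26.3, 41.4 and 37.7 CPM at 4 weeks and at 58.3 to 84.3 CPM at 15 weeks (1.09 ± 0.14, adjusted p = 0.000183). Grin2b was at 98.1, 78.4, 66.5, 115 and 110 CPM at 4 weeks and at 149 to 263 CPM at 15 weeks (1.16 ± 0.22, adjusted p = 0.00333). In each of these the lowest 15-week control was above the highest 4-week control. Grin2c fell by 0.44 ± 0.15 (adjusted p = 0.0367) with overlapping ages. That call ended without 15-week control 1, 2 or 3 or without 4-week control 1, 2, 3 or 5 (adjusted p from 0.052 to 0.146). Grin2d, at 0.11 ± 0.11 (adjusted p = 0.476), did not pass.

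Gria1 was at 238, 204, 229, 239 and 209 CPM in 4-week controls and rose by 0.59 ± 0.09 (adjusted p = 0.000298), without overlap. Gria3 rose by 0.25 ± 0.07 (adjusted p = 0.0114), a call that ended in the fit over all 17 libraries (adjusted p = 0.237). Gria2 (-0.12 ± 0.08, adjusted p = 0.261) and Gria4 (-0.05 ± 0.07, adjusted p = 0.596) did not pass. Of the other receptors, Grik3 rose by 1.18, Grm8 by 0.93, Grik4 by 0.53, Grm2 by 0.52 and Grm5 by 0.36, with adjusted p of at most 0.00849. Grm5 was at 250, 208, 228, 229 and 213 CPM at 4 weeks and above 276 CPM in every 15-week control, and its adjusted p was 0.0518 in the fit over all 17 libraries. Grm3, at 0.18 ± 0.08, had separate ages and an adjusted p of 0.0752.

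**Figure D4:**
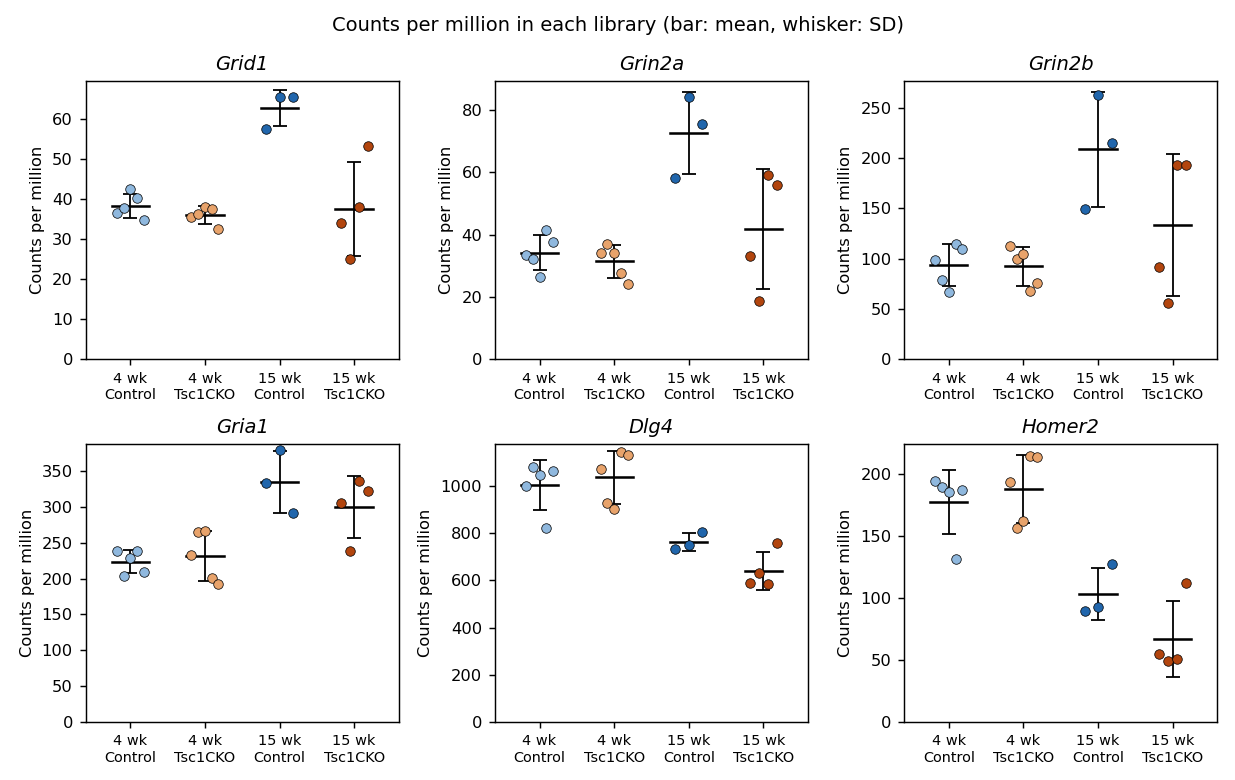
CPM of Grid1, Grin2a, Grin2b, Gria1, Dlg4 and Homer2 in each of the 17 libraries by group, with the mean (bar) and SD (whisker). The 15-week controls of Grid1, Grin2a, Grin2b and Gria1 lie above, and those of Dlg4 and Homer2 below, all 4-week controls.

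Of 12 scaffold genes, 5 fell and 2 rose with age in controls, where 19.3% of all genes fell and 22.4% rose. Dlg4 was at 1002.9, 1082.1, 1048, 823 and 1065 CPM in 4-week controls and fell by 0.39 ± 0.09 (adjusted p = 0.00542), and Dlg2, its close relative, fell by 0.44 ± 0.10 (adjusted p = 0.00563). In both the ages did not overlap. Homer2 fell by 0.78 ± 0.15 (adjusted p = 0.00221) and Cnih2 by 0.38 ± 0.08 (adjusted p = 0.00225). Shank2 (-0.36, adjusted p = 0.0456) and Shank3 (-0.46, adjusted p = 0.0316) also fell, with overlapping ages. Both lost the call without 15-week control 1 or 2 or without 4-week control 1, 2 or 5, with adjusted p from 0.0669 to 0.177 for Shank2 and from 0.0547 to 0.124 for Shank3. In the fit over all 17 libraries they were 0.103 and 0.0633, and with no filter on low counts that of Shank2 was 0.0545.

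Dlg3, the Dlg gene on the X chromosome, rose where Dlg2 and Dlg4 fell. It was at 165, 163, 183, 166 and 172 CPM at 4 weeks and at 243, 232 and 263 CPM at 15 weeks (0.54 ± 0.07, adjusted p = 0.000109). Neto1 (0.43, adjusted p = 0.00417) and Grip1 (0.43, adjusted p = 0.0135) rose as well. The call of Grip1 ended without 15-week control 2 (adjusted p = 0.0912), and Homer1 stood at -0.03 ± 0.25 (adjusted p = 0.949).

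Cell type markers differed between the same control libraries. Of 10 inhibitory neuron markers 6 rose and 2 fell, with summed levels of 828 to 916 CPM at 4 weeks and 1191.5 to 1220.5 CPM at 15 weeks. Of 8 pan-neuronal markers 5 rose, with summed levels of 6317.9 to 7394.5 and 8387.3 to 9494.5 CPM. Of 9 excitatory neuron markers 4 rose, and their summed levels overlapped at 8269.1 to 9931.7 and 7885.9 to 10029.6 CPM. Of 12 astrocyte markers 5 fell, with summed levels of 7089.6 to 11699.8 and 7450.9 to 8351.1 CPM. The part of these levels in the age values was not tested. In the other synaptic lists 6 of 13 AMPA receptor auxiliary proteins and 12 of 22 adhesion and organizer genes rose and none fell, while 11 of 27 scaffold and signalling genes rose and 4 fell and 6 of 14 genes of glutamate transport and metabolism rose and 4 fell. The shares of all genes were 22.4% risen and 19.3% fallen.

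Ratios of 2 genes within a library do not depend on library scaling, and 3 pairs were compared by two-sided exact permutation tests in 3 comparisons each. The log2 ratio of Gria1 to Gria2 counts, which bears on the share of AMPA receptor message without the calcium-blocking subunit, had means of -1.97 ± 0.11 (SD, n = 5) in 4-week controls, -1.78 ± 0.17 (SD, n = 5) in 4-week Tsc1CKO, -1.28 ± 0.17 (SD, n = 3) in 15-week controls and -0.88 ± 0.17 (SD, n = 4) in 15-week Tsc1CKO. The ages did not overlap in controls, with a difference of 0.70 and the smallest p the design allows (exact permutation p = 0.0179, adjusted over the 9 tests 0.161). The genotype differences were 0.20 at 4 weeks (exact permutation p = 0.0794) and 0.39 at 15 weeks (exact permutation p = 0.0571), where the smallest possible p are 0.00794 and 0.0286. At 15 weeks the lowest Tsc1CKO ratio of -1.09 was above the highest control ratio of -1.13, and an adjusted p of 0.196 belonged to both genotype differences. Without Tsc1CKO library 4 the 15-week difference was 0.46 (exact permutation p = 0.1, the smallest 3 against 3 allow).

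The log2 ratio of Grin2a to Grin2b was between -1.64 and -1.44 in all 4 group means, and its differences were -0.10 and -0.13 between genotypes at 4 and 15 weeks and -0.06 between the ages in controls (exact permutation p = 0.302, 0.257 and 0.518). The groups overlapped in each comparison. The log2 ratio of Grm5 to Grm3 differed by -0.33 between genotypes at 4 weeks (exact permutation p = 0.0873), by 0.13 at 15 weeks (exact permutation p = 0.686) and by 0.18 between the ages in controls (exact permutation p = 0.125). Its 15-week Tsc1CKO values spread from 0.65 to 1.69, and without library 4 the 15-week difference was 0.30 (exact permutation p = 0.3).

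**Figure D5:**
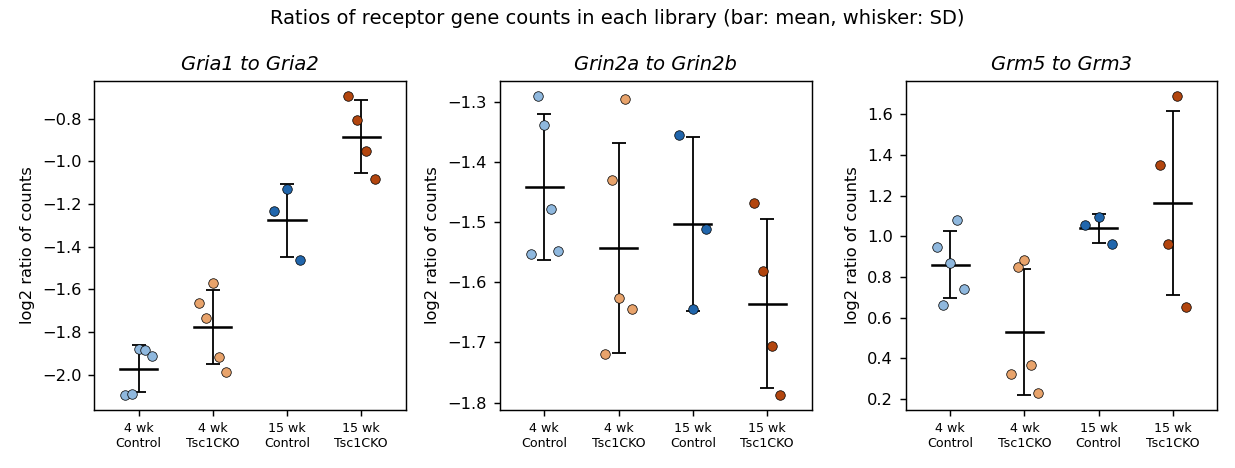
Log2 ratio of gene counts in each library for Gria1 to Gria2, Grin2a to Grin2b and Grm5 to Grm3, by group, with the mean (bar) and SD (whisker). The ratio of Gria1 to Gria2 stands lowest in 4-week controls (-1.97) and highest in 15-week Tsc1CKO (-0.88), and the ratio of Grin2a to Grin2b overlaps in all groups.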

How the data were processed

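Poly-A RNA-seq was analysed in 17 libraries, with groups taken from the labels. Per the submitters' processing notes and the labels' protocols, the authors made libraries from 1 µg of RNA of integrity number 9.8 or more, base-called reads of 100 bases with bcl2fastq 1.8.4 and used Tophat 2.0.4 on mm9. The read counter, the annotation and the use of strand are not named in the labels or headers, so reads of overlapping genes may be shared. The authors deposited unnormalized counts per gene. They also deposited 2 tables of listed genes with library signal (counts divided by a size factor), log2 fold changes, the test score and p-values from DESeq2, of which the log2 fold changes and adjusted p-values were used here. The 42 genes and the other lists were chosen with earlier results of these data known.

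Counts were tested with edgeR 4.0.16 (TMM scaling, default expression filter, robust quasi-likelihood test) in R 4.3.3, per age for genotype, in controls for age, and over all 17 libraries for the difference between ages. P-values were adjusted by Benjamini-Hochberg over all genes tested, at 0.05. The SE was derived from the log2 fold change and its F value. CPM used the TMM factors, and levels per kilobase used the exon length of GENCODE models of mm9. Alternatives were DESeq2 1.42.0 size factors and test, limma 3.58.1 voom with quality weights, other filters, all libraries together, a replicate block and leaving out each library. The steps were checked on simulated counts. The 29 pairs of libraries within groups differed by 7.14 to 96.8 per degree of freedom in a chi-square of counts, so none was a repeat deposit, and the ribosomal gene Rn45s took 2.43 to 10.7% of counts. Per-library values were given for every gene that passed in a genotype comparison, for 7 of the 8 smallest p of the age comparison, for the 4 smallest p where fewer than 4 passed, and for Gria1, Gria2, Grin1, Grin2a, Grin2b, Grin2d, Grm3, Grm5, Homer1 and Dlg4. Other genes were named for their place in a family, and the genotype values of Grik3, Grid1, Homer2 and Shank1 were chosen after their values were seen. Values of 2 genes of the set and of 1 neuron marker are not reported here and enter only the counts, medians and sums.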

Additional observations from a re-analysis of the deposited data

Results flagged for a closer look

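Of 63 groups of 4 or 5 libraries examined for a single value far from the rest (gap to the nearest value over the whole range, against Dixon's 95% limits), 4 held one, where chance gives about 1 in 20. In 15-week Tsc1CKO, Grm3 of library 4 stood at 151 CPM against 75.5 to 77.3 CPM in the other 3, a gap of 0.976 of the range. In 4-week controls, Grm3 of library 4 was low at 108 CPM against 125 to 131 CPM (0.718). In 4-week Tsc1CKO, Grm7 of library 3 was low at 62.6 CPM against 70.3 to 72.4 CPM (0.788), and Cnih2 of library 1 was high at 178 CPM against 134 to 145 CPM (0.745).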

How the results depend on the processing

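With DESeq2, the number of the 41 genes called was 1 in place of 0 for genotype at 4 weeks, 9 in place of 2 at 15 weeks and 4 in place of 0 for the difference between ages. Limma voom with quality weights gave 29 at 15 weeks and 20 for the difference. At 15 weeks a fit over all 17 libraries gave 17, and leaving out 1 library gave 0 to 20. For the difference between ages, leaving out 1 library gave 0 to 18. The highest counts came without 15-week Tsc1CKO library 4. In each of these fits the share of all genes called moved as well. With DESeq2 the shares were 4.49, 12.8 and 6.4% in the order above, against 0.0407, 3.78 and 0.213% with edgeR. With limma voom they were 34.5 and 25.5%, and in the 15-week fit over all 17 libraries 22.6%. Without 15-week Tsc1CKO library 4 they were 23.2% at 15 weeks and 22.6% for the difference. The cause was not tested. For age in controls every alternative gave 20 to 26, where 30.5 to 44.3% of all genes were called. The median log2 fold change of the set stayed between -0.07 and 0.02 at 4 weeks, between -0.47 and -0.28 at 15 weeks, between -0.41 and -0.26 for the difference and between 0.10 and 0.24 for age. No value changed sign among those that passed the test. For the genes named by the rule for per-library values, 905 of 967 values under an alternative kept their side of the threshold, 51 newly passed and 11 no longer did. Over all 41 genes, the 2 genotype calls at 15 weeks were lost 10 times and 7 of the age calls 31 times. With 1 library left out, the 4-week genotype difference ranged from 0.145 to 0.25 for the ratio of Gria1 to Gria2 (exact permutation p = 0.0397 without Tsc1CKO library 5) and from -0.416 to -0.253 for that of Grm5 to Grm3 (exact permutation p = 0.0397 without Tsc1CKO library 3). Same-numbered libraries did not deviate together (correlations from -0.105 to 0.193), and 1 number in each comparison correlated best with its own, so the numbers were not treated as pairs. A replicate block gave 0, 15, 0 and 25 calls for genotype at 4 and 15 weeks, the difference and age. The shares of all genes called were 0.0813, 18.9, 1.64 and 38.5% in that order. Tsc1CKO library 4 has no control of its number, so the 15-week block also takes it out of the genotype estimate. Grm6, with at most 2 counts in a library, was removed by the filter on low counts. With no such filter it was tested in each comparison, among 42 genes, and was not called.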
